A study of Mus musculus with 2 samples.

Results

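Cells of the neonatal mouse oviduct epithelium were compared by their transcripts of 10 genes of the mitotic machinery. Cells with several of the 10 were set against cells in which none of the 10 was counted, although transcripts of other cell cycle genes were. The cells were chosen by measured values: a cell of the P4 library entered the dividing group if 3 or more of 10 genes (Mki67, Top2a, Birc5, Cdk1, Ube2c, Ccnb1, Cenpf, Tpx2, Nusap1 and Ccna2) had at least 1 unique molecular identifier (UMI, a count of 1 captured transcript). 89 of the 263 P4 cells met that rule. The 53 cells with none of the 10 genes formed the comparison group, and the 121 cells with 1 or 2 of them were kept apart. The series holds 669 cells in all, of which 406 are adult.

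Oviduct cells of C57BL/6 mice were dissociated enzymatically and sorted to drop dead cells and, by Epcam and CD45, to enrich epithelium. They were sequenced with the 10x Genomics single-cell 3' kit (V2). The series has 1 library of adult oviduct at estrus and 1 library labelled P4, read here as postnatal day 4, with no stage given. Every value below except those of 1 short comparison with the adult comes from the P4 library. Both groups of cells therefore come from 1 library, and the number of animals behind it is not given in the sources used here. With 1 library there is no replicate and no test: intervals are exact 95% Poisson intervals of pooled counts and cover counting error only.

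A growing epithelium makes new cells by repeated rounds of DNA synthesis (S phase) and mitosis (G2 and M phase). Genes for mitosis are largely switched on together late in the cycle, by factors that bind CCAAT boxes and the CHR, a promoter element with the core TTTGAA, while many S phase genes carry E2F sites. The oviduct epithelium holds secretory cells, which make oviductal glycoprotein, and multiciliated cells, which carry beating cilia. Multiciliated precursors leave the cycle but use part of its machinery, such as the cyclin gene Ccno and the transcription factor gene Myb, to build many centrioles at once.

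The promoters of 3 of the 10 genes show the elements for which mitotic genes are known, and those of 2 multiciliated genes described below show another. Windows run from 250 bases before to 50 after the annotated start, 5' to 3' on the gene's strand, from RefSeq. In the first 3, capitals mark TTTGAA and CCAAT on either strand, so that ATTGG and TTCAAA are their complements. In the last 2, capitals mark GTTGCC, an arm of the X-box bound by RFX factors, on either strand.
Top2a (GRCm38.p6 chr11:99024140-99024439, minus strand): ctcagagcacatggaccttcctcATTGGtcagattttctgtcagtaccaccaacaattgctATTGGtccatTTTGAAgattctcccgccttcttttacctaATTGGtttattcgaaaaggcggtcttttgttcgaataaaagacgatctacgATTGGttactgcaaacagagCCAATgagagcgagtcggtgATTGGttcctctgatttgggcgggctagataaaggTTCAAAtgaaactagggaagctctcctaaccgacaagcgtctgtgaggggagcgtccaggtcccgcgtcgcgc
Cdk1 (GRCm38.p6 chr10:69352863-69353162, minus strand): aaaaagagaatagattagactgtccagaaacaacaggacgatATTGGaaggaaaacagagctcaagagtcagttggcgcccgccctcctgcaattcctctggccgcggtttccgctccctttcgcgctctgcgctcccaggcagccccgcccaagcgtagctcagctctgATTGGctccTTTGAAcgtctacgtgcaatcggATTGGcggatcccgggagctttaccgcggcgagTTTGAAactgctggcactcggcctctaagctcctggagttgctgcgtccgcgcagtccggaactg
Ube2c (GRCm38.p6 chr2:164769679-164769978, plus strand): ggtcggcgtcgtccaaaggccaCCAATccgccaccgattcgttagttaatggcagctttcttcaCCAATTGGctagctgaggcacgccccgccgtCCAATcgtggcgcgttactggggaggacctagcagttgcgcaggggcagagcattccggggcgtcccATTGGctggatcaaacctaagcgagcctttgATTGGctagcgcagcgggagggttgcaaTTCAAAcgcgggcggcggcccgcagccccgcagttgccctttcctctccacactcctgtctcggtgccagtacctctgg
Ccno (GRCm38.p6 chr13:112987552-112987851, plus strand): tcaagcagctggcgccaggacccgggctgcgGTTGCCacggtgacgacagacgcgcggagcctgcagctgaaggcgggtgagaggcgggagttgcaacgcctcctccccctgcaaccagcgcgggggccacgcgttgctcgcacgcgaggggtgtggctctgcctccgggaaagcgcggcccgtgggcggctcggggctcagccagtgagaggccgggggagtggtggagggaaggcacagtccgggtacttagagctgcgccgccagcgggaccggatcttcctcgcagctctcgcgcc
Dynlrb2 (GRCm38.p6 chr8:116504765-116505064, plus strand): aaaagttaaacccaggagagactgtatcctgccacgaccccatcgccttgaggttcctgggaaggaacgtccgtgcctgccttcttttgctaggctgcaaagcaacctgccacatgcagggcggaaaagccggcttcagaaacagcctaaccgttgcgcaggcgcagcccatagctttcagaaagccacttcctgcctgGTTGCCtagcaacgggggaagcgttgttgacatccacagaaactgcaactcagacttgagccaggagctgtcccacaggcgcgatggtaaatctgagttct
The Top2a window held 2 TTTGAA and 6 CCAAT matches, the Cdk1 window 2 and 3, and the Ube2c window 1 and 6, with overlapping matches each counted. TTTGAA was found in 5 of 8 rule genes with a listed window and in 67 of 117 genes of a G2 and M phase list, against 18.1% of the 27025 genes in the promoter table. CCAAT was found in 79 of 117 G2 and M phase genes, 24 of 39 S phase genes and 37.9% of all. The E2F site TTTGGCGC was found in 7 of 39 S phase genes and 0.537% of all. GTTGCC was found in 12 of 23 genes of the multiciliated and precursor lists and in 12.7% of all. Genes outside the cell cycle list that were higher in the dividing group held TTTGAA in 67 of 641 windows, or 10.5%, and those lower in 11.5%, against 10.7% of all measured genes outside the list. These matches describe letters in a window, and no binding was measured.

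The 10 genes were counted at low levels, so the rule rests on few UMI per cell. Top2a, the topoisomerase that untangles chromosomes, had 194 UMI over all 263 cells and Cdk1, the kinase that drives entry into mitosis, had 140. Tpx2, a spindle assembly gene, had 46 and Ccna2, the gene of cyclin A2, 45. In the dividing group Top2a stood at 1.83 (1.56 to 2.12) UMI per 10000, Birc5, a chromosomal passenger gene, at 1.18 (0.973 to 1.42), and Mki67, the gene of the proliferation antigen Ki-67, at 0.538 (0.401 to 0.708). The comparison group is at 0 for all 10 genes by the rule itself. Of the dividing cells, 37 carried exactly 3 of the genes, 15 carried 4, and 37 carried 5 or more, among them 4 cells with all 10. Cells just inside the threshold, with 3 genes, held a summed 4.19 (3.53 to 4.94) UMI per 10000 of the 10 genes, and the 49 cells just outside it, with 2 genes, held 2.86 (2.36 to 3.44).

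Depth moved with the grouping. The median cell held 10120 UMI in the dividing group (range 1608 to 23372), 7235 in the cells with 1 or 2 genes and 5843 in the comparison group (range 1344 to 11255). When every P4 cell was first thinned to 1000 UMI, 8 of 263 cells, or 3.04%, met the rule and 193 had none of the genes, against 33.8% (28.1% to 39.9%, Clopper-Pearson) at full depth. At 3000 UMI, which leaves out 18 shallower cells, 26 of 245 cells met it. A cell of the comparison group is thus one in which the genes were not counted, and whether it was cycling was not measured. A larger RNA content of dividing cells and the better chance of a deep cell to meet the rule cannot be told apart here. Levels below are therefore shares of all UMI, and each gene was also read from cells thinned to 1000 UMI after grouping, which all 89 and 53 cells reach.

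**Figure D1:**
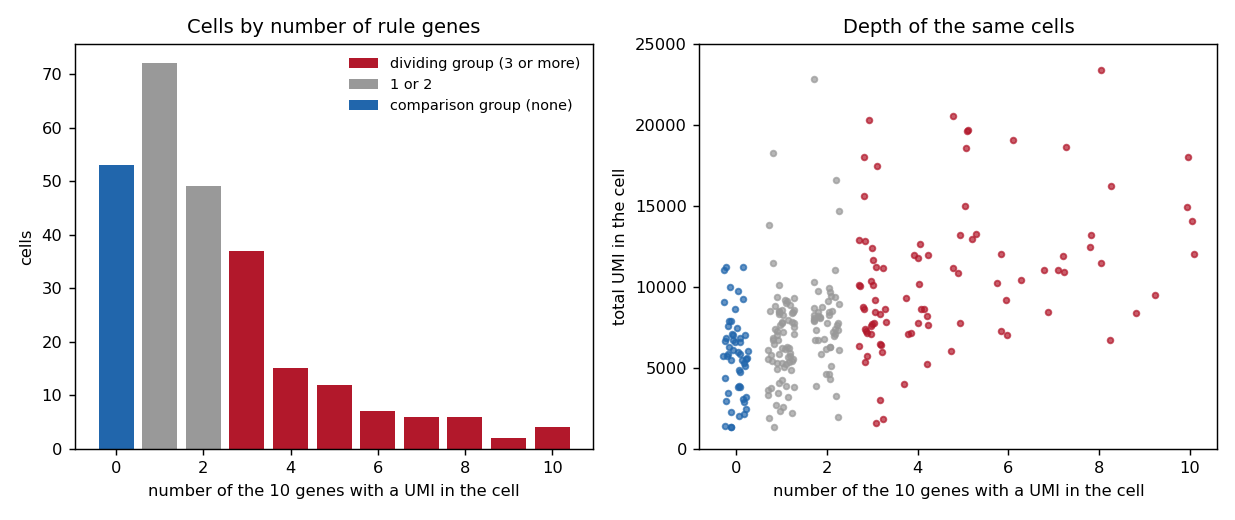
The left panel shows the number of P4 cells (vertical axis) by how many of the 10 genes had a UMI (horizontal axis), and the right panel the total UMI of each cell on the same horizontal axis, with points spread sideways for legibility. Red marks the 89 cells of the dividing group, grey those with 1 or 2 genes and blue the 53 cells with none, none of which exceeds 11255 UMI.

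Epithelial markers were counted in both groups. Epcam, the epithelial adhesion gene used in the sort, stood at 4.45 (4.04 to 4.9) UMI per 10000 in the dividing group and 4.96 (4.2 to 5.81) in the comparison group, and had a UMI in 94.4% and 79.2% of cells at their unequal depths. Ptprc, the CD45 gene used in the sort, and all 7 erythroid markers were at 0 UMI in both groups. Fibroblast markers summed to 11.1 (10.4 to 11.8) UMI per 10000 in the dividing group and 11.2 (10.0 to 12.4) in the comparison group, smooth muscle markers to 4.83 (4.4 to 5.3) and 4.31 (3.6 to 5.11), and endothelial markers to 0.96 (0.773 to 1.18) and 0.555 (0.323 to 0.888). Col1a1, the gene of a fibrillar collagen chain, had a UMI in 83.1% and 64.2% of cells, and the part of these markers in other results was not tested. Mesothelial markers summed to 1.51 (1.27 to 1.78) and 2.19 (1.69 to 2.78). Leukocyte markers summed to 1.04 (0.849 to 1.27) and 0.555 (0.323 to 0.888), of which Cd74 had 60 and 6 UMI. Mitochondrial transcripts took a median 0.783% of a dividing cell's UMI and 0.962% of a comparison cell's, with the highest cells at 2.8% and 6.39%.

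Cell cycle genes outside the rule were higher in the dividing group, in both phases. Of 70 measured genes of the G2 and M phase list, which holds none of the rule genes, 56 were at least 1.5-fold higher and 0 lower. Of 37 measured S phase genes 18 were higher and 0 lower. A gene counts as measured if at least 10% of the P4 cells had a UMI, and folds are taken after adding 0.1 UMI per 10000 to both levels. Smc4, a condensin gene that compacts chromosomes, stood at 1.09 (0.887 to 1.32) UMI per 10000 against 0.0979 (0.0202 to 0.286). Hmgb2, a chromatin protein gene typical of cycling cells, stood at 10.3 (9.65 to 11) against 3.75 (3.1 to 4.5). Pcna, the sliding clamp of DNA replication, stood at 0.77 (0.604 to 0.969) against 0.228 (0.0918 to 0.471). Fen1, which trims newly made DNA ends, had 36 UMI against 0, or 3.88-fold higher when the comparison group is set to a floor of 3 counts. The summed G2 and M phase list stood at 141 (139 to 144) UMI per 10000 in the dividing group and 65.7 (62.9 to 68.7) in the comparison group. The sum was 66.7 (65 to 68.4) in cells with 1 or 2 rule genes. Every comparison cell held transcripts of that list, the lowest 39.5 UMI per 10000. Single genes differed: Hmgb2 had a UMI in 41 of the 53 comparison cells and Smc4 in 3. S phase transcripts were also present in the comparison group. Its 53 cells held a summed 13.2 (12 to 14.6) UMI per 10000 of the 53-gene list, and 52 of them had at least 1 S phase UMI. The sum was 13.5 (12.5 to 14.6) in cells with 1 rule gene, 12.6 (11.5 to 13.8) with 2 and 22.5 (20.9 to 24.1) with 3, so cells with 0, 1 and 2 rule genes had overlapping intervals and cells with 3 lay above them.

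Genes that steer entry into the cycle went in both directions. Of 22 measured D cyclin, inhibitor and E2F genes, 6 were at least 1.5-fold higher and 2 lower. The shares over all measured genes outside the cell cycle list were 11.8% higher and 6.48% lower. Ccnd1, the gene of cyclin D1, stood at 1.46 (1.22 to 1.72) UMI per 10000 against 0.914 (0.607 to 1.32), while Ccnd2, that of cyclin D2, stood at 2.18 (1.9 to 2.5) against 3.33 (2.71 to 4.04). Within cluster 0 the ratios were 1.18 (0.731 to 1.98) for Ccnd1 and 1.06 (0.689 to 1.69) for Ccnd2, and within cluster 1 2.77 (1.21 to 7.39) and 0.671 (0.49 to 0.921). E2f1, which activates S phase genes, had 33 UMI against 4, a ratio of 2.67 (0.949 to 10.4). Btg2, an antiproliferative gene, stood at 5.57 (5.11 to 6.07) against 7.63 (6.69 to 8.68), within 1.5-fold.

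Outside a list of 440 cell cycle genes, 7668 genes were measured. Of these, 906 (11.8%) were at least 1.5-fold higher in the dividing group and 497 (6.48%) at least 1.5-fold lower, and the median log2 fold was 0.03. Most of these genes had few UMI and wide intervals. Among the 862 genes with 200 or more UMI in the 2 groups together, 31 were higher and 7 lower, a filter chosen after the values were seen. A gene counts as measured by its share of all P4 cells, and the dividing group has more and deeper cells than the comparison group. Genes high in the dividing group pass more easily, so the excess of higher over lower genes is partly set by that choice. The limit of 200 UMI favours them too, as it sums both groups. With no filter on the share of cells, 1822 genes were higher and 1229 lower.

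Cilium genes had many of the largest folds. Of 15 multiciliated markers, 7 were measured and the other 8 had a UMI in fewer than 10% of P4 cells. The 7 were all at least 1.5-fold higher in the dividing group, with a median log2 fold of 1.83. Tppp3, a microtubule-bundling gene of ciliated cells, stood at 2.07 (1.79 to 2.38) UMI per 10000 against 0.261 (0.113 to 0.514). Dynlrb2, a dynein light chain gene, stood at 1.45 (1.21 to 1.71) against 0.0979 (0.0202 to 0.286), and Foxj1, the master transcription factor of motile cilia, at 1.3 (1.08 to 1.55) against 0.294 (0.134 to 0.557). Of 11 precursor genes 2 were measured, Myb and Ccno. The 10% filter counts cells of the dividing group too, so genes high in that group pass it more easily. Ccno had a UMI in 11.4% of all P4 cells, among them 14 cells with 1 or 2 rule genes and 2 comparison cells. Myb had a UMI in 14.4%, among them 15 and 2 of these cells. That all measured members of both lists were higher is therefore partly set by the filter, and so are the 12 largest folds. Myb stood at 1.02 (0.83 to 1.25) against 0.0653 (0.0079 to 0.236) and Ccno at 0.623 (0.474 to 0.803) against 0.0653 (0.0079 to 0.236). Of the 12 genes with the largest folds under the rule for named genes, 5 were members of these lists: Dynlrb2, Myb, Tppp3, Ccno and Rsph1. Mns1, which builds the axoneme of cilia and flagella, was also among the 12, at 0.665 (0.511 to 0.851) against 0.0653 (0.0079 to 0.236).

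A few cells carried these transcripts. Of all 263 P4 cells, 6 held more than 30 UMI per 10000 of the multiciliated markers, and 5 of the 6 were in the dividing group, with 48.2, 56.0, 72.8, 73.7 and 94.9 UMI per 10000. The remaining one, at 152, had 1 rule gene. None was in the comparison group, where the highest cell held 7.9 and the median cell 1.41, against a median of 1.51 in the dividing group. The 5 cells made up 9.17% of the UMI of the dividing group and 68.5% of its multiciliated marker UMI. All 5 were in cluster 0 of the authors' clustering, and they held 10885, 18552, 18659, 19101 and 19680 UMI. A further 4 dividing cells and 1 cell with 1 rule gene held 15.8 to 27.6 UMI per 10000.

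The 5 cells did not carry the rule genes evenly. Cdk1 stood at 2.53 (1.59 to 3.83) UMI per 10000 in the 5 cells and 0.918 (0.727 to 1.14) in the other 84, and Top2a at 2.42 (1.5 to 3.69) and 1.77 (1.5 to 2.07). Cenpf, a kinetochore gene, stood at 1.27 (0.632 to 2.27) and 1.08 (0.872 to 1.32). Cdk1, Top2a and Cenpf each had a UMI in all 5. Other mitotic genes of the rule varied. Ccnb1, the gene of cyclin B1, stood at 0.691 (0.253 to 1.5) and 0.674 (0.512 to 0.871), Tpx2 at 0.576 (0.187 to 1.34) and 0.395 (0.274 to 0.552), and Mki67 at 0.23 (0.0279 to 0.832) and 0.569 (0.421 to 0.753), all with overlapping intervals. Nusap1, Birc5 and Ube2c were lower in the 5 cells. Nusap1, a spindle gene, stood at 0 (0 to 0.425) in the 5 cells and 0.895 (0.706 to 1.12) in the rest. Birc5 stood at 0.23 (0.0279 to 0.832) against 1.28 (1.05 to 1.54), and Ube2c, which helps destroy cyclins at mitotic exit, at 0.23 (0.0279 to 0.832) against 1.15 (0.935 to 1.4). Among genes outside the rule, Pcna stood at 0 (0 to 0.425) in the 5 cells and 0.848 (0.665 to 1.07) in the rest, and Ccnb2, the gene of cyclin B2, stood at 0.23 (0.0279 to 0.832) and 1.14 (0.924 to 1.39). Smc4 stood at 2.3 (1.41 to 3.56) and 0.964 (0.768 to 1.2), and the replacement histone gene H2afz at 21.4 (18.4 to 24.7) and 13.9 (13.1 to 14.7). Precursor genes were high in the 5 cells: Deup1, which forms the platforms on which centrioles are made, stood at 6.79 (5.17 to 8.76) against 0.337 (0.226 to 0.484), Mcidas, the coregulator that starts the programme, at 2.53 (1.59 to 3.83) against 0.139 (0.072 to 0.244), and Cdc20b at 1.5 (0.797 to 2.56) against 0.174 (0.0975 to 0.287). The 5 cells therefore met the rule for dividing cells with 0 UMI of Nusap1 and Pcna. They were set apart by their marker level, so their level of multiciliated genes describes that choice.

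**Figure D2:**
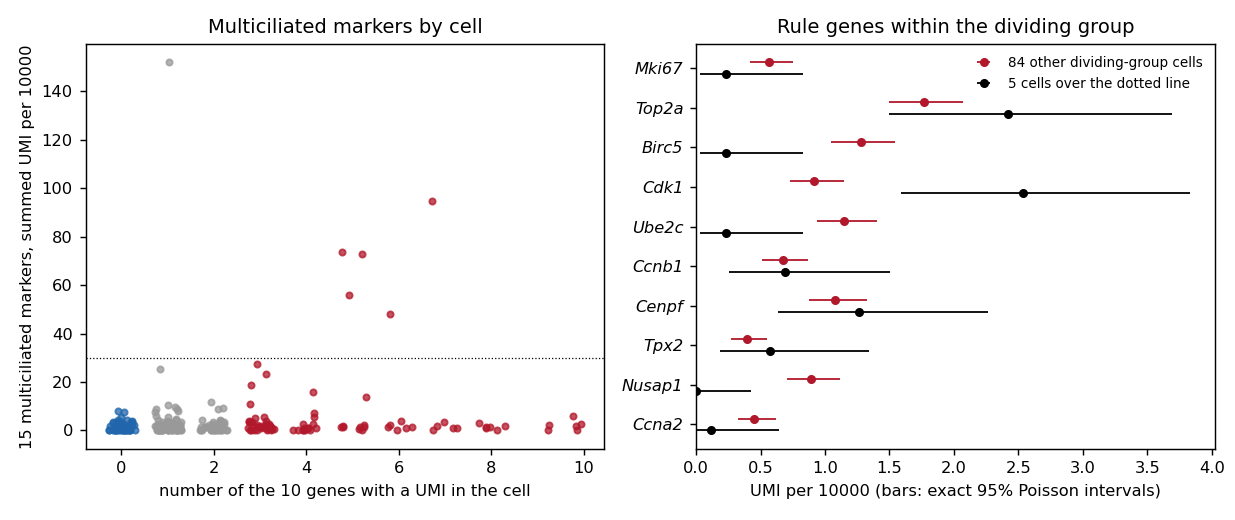
The left panel shows, for each P4 cell, the summed level of 15 multiciliated markers in UMI per 10000 against the number of the 10 rule genes with a UMI, with points spread sideways, red for the dividing group, grey for 1 or 2 genes and blue for none. The dotted line is at 30 UMI per 10000. The right panel shows the pooled level of each rule gene in the 5 dividing-group cells over that line (black) and in the other 84 (red), with exact 95% Poisson intervals, where Cdk1 is higher and Nusap1 is at 0 in the 5 cells.

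Without the 6 cells the cilium genes were nearer to the comparison group. The median log2 fold of the multiciliated markers was 0.70, with 6 of 7 at least 1.5-fold higher, against 10.8% of all measured genes outside the cell cycle list higher and 6.44% lower in the same cells. Dynlrb2 kept a ratio of 4.27 (1.35 to 21.7), Tppp3 of 2.49 (1.18 to 6.06) and Foxj1 of 2.22 (1.09 to 5.1). Myb stood at 0.476 UMI per 10000 in the remaining 84 dividing cells, a ratio of 7.3 (1.9 to 62.3) to the 2 UMI of the comparison group. The authors' clusters differed here. In cluster 0 the ratio of Foxj1 was 5.61 (2.34 to 17.6) and in cluster 1 it was 0.831 (0.197 to 4.0). That of Tppp3 was 14.6 (4.9 to 71.2) in cluster 0 and 1.55 (0.528 to 5.5) in cluster 1. The difference between clusters was not tested. Hsp90aa1, the gene of a cytosolic chaperone, followed the same cells: it stood at 36.5 (32.6 to 40.7) UMI per 10000 in the 5, 4.1 (3.68 to 4.55) in the other 84 and 3.03 (2.45 to 3.72) in the comparison group. Its near-identical copy Gm12346, whose reads cannot be told from those of Hsp90aa1, was listed at 204 and 20 UMI.

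Lsm2 and Ppa1 were the 2 genes that ranked among the 12 largest upward folds both with and without those cells. Lsm2 (chr17:34981862-34985891 in GRCm38), a subunit of the ring that binds U6 small nuclear RNA and takes part in mRNA decay, had 158 UMI in the dividing group and 8 in the comparison group. Its level was 1.67 (1.42 to 1.95) UMI per 10000 against 0.261 (0.113 to 0.514), a ratio of 6.39 (3.16 to 15.1). The ratio was 6.0 (2.27 to 22.4) in cluster 0 and 8.03 (2.97 to 30.5) in cluster 1. At 1000 UMI per cell, Lsm2 had a UMI in 13.5% of dividing and 3.77% of comparison cells, against 73% and 15.1% at full depth. Across cells with 0, 1, 2 and 3 rule genes its level was 0.261 (0.113 to 0.514), 0.548 (0.358 to 0.803), 0.963 (0.682 to 1.32) and 1.74 (1.33 to 2.25) UMI per 10000, and with 5 or more it was 1.66 (1.31 to 2.07). So Lsm2 was higher with each added rule gene up to 3, with overlapping intervals between 0 and 1 and between 1 and 2, and an interval at 3 above that at 2. Ppa1, the cytosolic inorganic pyrophosphatase, had 54 UMI against 1, a ratio of 17.5 (3.0 to 703). The share of cells with a UMI of Ppa1 was 43.8% in the dividing group and 1.89% in the comparison group at full depth.

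The other genes among the 12 were Shisa8, Mlf1, Phf10 and Ndufaf3. Shisa8 stood at 1.4 (1.18 to 1.66) UMI per 10000 against 0.294 (0.134 to 0.557). Phf10, a subunit of a SWI/SNF chromatin remodelling complex, stood at 0.707 (0.548 to 0.898) against 0.131 (0.0356 to 0.334), and Ndufaf3, an assembly factor of respiratory complex I that overlaps Impdh2 on the opposite strand, at 0.876 (0.698 to 1.09) against 0.196 (0.0718 to 0.426). Without the cells rich in multiciliated markers the ratio of Shisa8 was 3.09 (1.55 to 7.0), of Mlf1 3.68 (1.15 to 18.8), of Phf10 2.85 (1.01 to 11.1) and of Ndufaf3 1.96 (0.81 to 5.72). In cluster 1 the ratio of Shisa8 was 1.11 (0.237 to 6.85) and that of Phf10 1.11 (0.237 to 6.85). The rule applied without those cells, a step added after the values were seen, named Ppa1, Lsm2, Gsap, Sprr2g, Nudcd2, Mrpl36, B4galt1, Slc24a5, Zdhhc21, Ahsa1, Prr15 and Ppp1cc. Ppp1cc, the catalytic subunit gamma of protein phosphatase 1, which acts on chromosomes at mitotic exit, stood at 1.89 (1.62 to 2.19) UMI per 10000 against 0.75 (0.476 to 1.13). Its last bases are shared with Ppp1ccb, so the 2 cannot be told apart. Ahsa1, which stimulates the chaperone Hsp90, stood at 0.96 (0.773 to 1.18) against 0.228 (0.0918 to 0.471). Nudcd2, of the NudC family that works with dynein and Hsp90, stood at 0.718 (0.557 to 0.91) against 0.228 (0.0918 to 0.471).

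**Figure D3:**
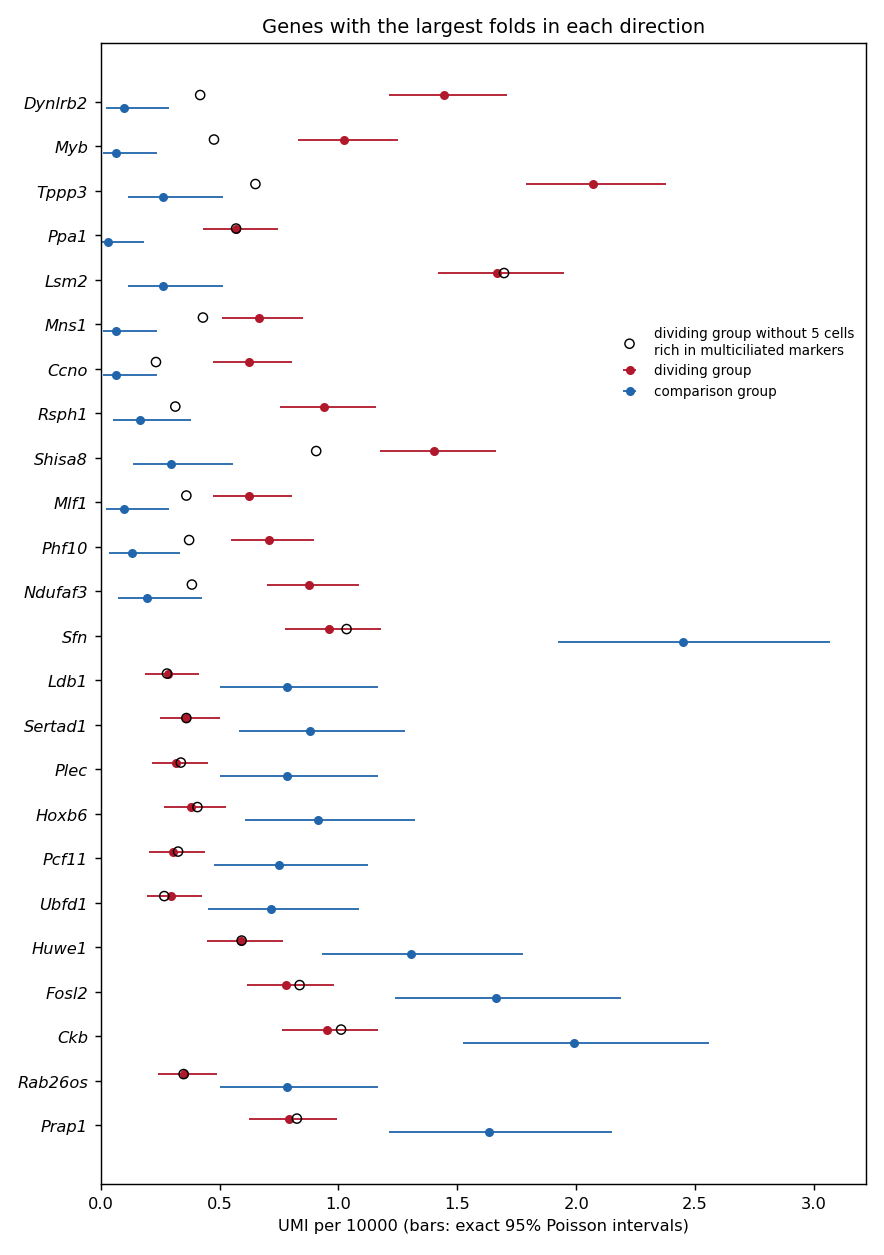
Pooled levels in UMI per 10000 (horizontal axis) of the 12 genes with the largest folds in each direction in the dividing group (red) and the comparison group (blue), with exact 95% Poisson intervals. Open circles give the dividing group without its 5 cells rich in multiciliated markers. The circles of Dynlrb2, Tppp3 and Ccno lie far left of the red points, while those of Lsm2 and Ppa1 and of the 12 lower genes lie on or near them.

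Genes with enough counts for a narrow interval mostly gave smaller differences. Tppp3, a multiciliated marker, was the largest exception, at a ratio of 7.93 (3.94 to 18.6). Of the 31 higher genes with 200 or more UMI, Nudc, a dynein-associated gene needed for mitosis and cytokinesis, stood at 3.42 (3.06 to 3.81) UMI per 10000 against 1.44 (1.04 to 1.93), although reads of its copy Nudc-ps1 cannot be told apart and its log2 fold at 1000 UMI per cell was 0.24. Elof1, a transcription elongation factor gene, stood at 2.5 (2.19 to 2.84) against 1.11 (0.768 to 1.55). Dpy30, a subunit of histone methyltransferase complexes, stood at 1.93 (1.66 to 2.23) against 0.881 (0.581 to 1.28), and Psip1, a chromatin-bound coactivator, at 1.99 (1.72 to 2.3) against 0.914 (0.607 to 1.32). Mt1, a metallothionein gene, stood at 7.03 (6.51 to 7.58) against 3.65 (3.01 to 4.4), and its neighbour Mt2 at 2.79 (2.46 to 3.14) against 1.79 (1.35 to 2.34). Without the cells rich in multiciliated markers these turned, to ratios of 0.874 (0.699 to 1.1) for Mt1 and 0.894 (0.649 to 1.24) for Mt2, so the higher level of both lay in those 5 cells. In cluster 1 the ratio of Mt1 was 0.844 (0.64 to 1.12). Tagln2, an actin-binding gene, stood at 2.87 (2.54 to 3.23) against 1.44 (1.04 to 1.93). Tuba1a, an alpha tubulin gene, stood at 3.09 (2.75 to 3.47) against 1.57 (1.15 to 2.08) but shares its last bases with Tuba1b and Tuba1c, and its ratio without those cells was 1.15 (0.827 to 1.62). Gm8203, at 2.21 (1.92 to 2.53) against 0.555 (0.323 to 0.888), is a copy of the cell cycle gene H2afz. Apart from Tppp3, these genes are in none of the lists and were named after their values were seen. The 7 lower ones were Ptpn22, Cebpb, Cebpd, Socs3, Ovgp1, Hspb1 and Ndufa6. Of the 31 higher genes 19 stayed past 1.5-fold without the cells rich in multiciliated markers, and of the 7 lower genes 4 did.

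Chromatin genes outside the cell cycle list leaned upward: 6 of 25 measured genes were at least 1.5-fold higher and 0 lower, with a median log2 fold of 0.33 against 0.03 over all measured genes outside the cell cycle list. The 6 are a share of 24%, against 11.8% of all those genes. Hmgb1, an abundant DNA-bending protein gene, had 1612 and 348 UMI, or 17 (16.2 to 17.9) UMI per 10000 against 11.4 (10.2 to 12.6), a ratio of 1.5 (1.33 to 1.69) that was just under 1.5-fold once 0.1 was added to both levels. Ssrp1 and Supt16, the pair that forms the histone chaperone FACT, had ratios of 1.91 (1.22 to 3.12) and 1.76 (0.985 to 3.36). Cbx1, a heterochromatin protein gene, had a ratio of 1.56 (1.16 to 2.12), Nap1l1, a histone chaperone gene, 1.53 (1.16 to 2.03), and Hmgn5, a nucleosome-binding gene, 2.4 (1.09 to 6.27). Hmgb1 was 11.4 (10.2 to 12.6), 11.6 (10.7 to 12.6) and 11 (10.0 to 12.1) UMI per 10000 in cells with 0, 1 and 2 rule genes, and 13.9 (12.7 to 15.2) and 19.8 (18.6 to 21.1) with 3 and with 5 or more. The intervals of the cells below the threshold overlapped, and the level was highest in the cells with most rule genes.

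Genes of RNA processing and nuclear transport were past 1.5-fold at about the share of all genes. In that list 4 of 30 measured genes were at least 1.5-fold higher and 0 lower, a share of 13.3% against 11.8% of all measured genes outside the cell cycle list, with a median log2 fold of 0.28. Snrpd1, a core protein of splicing snRNPs, stood at 2.3 (2.01 to 2.63) UMI per 10000 against 1.27 (0.905 to 1.74), although at 1000 UMI per cell its log2 fold was -0.34. Hnrnpa3, an RNA-binding protein gene, stood at 5.37 (4.92 to 5.86) against 3.49 (2.86 to 4.22), and Ranbp1, which works with the nuclear transport and spindle GTPase Ran, at 5.34 (4.88 to 5.83) against 3.39 (2.77 to 4.11). The log2 fold of Ranbp1 at 1000 UMI per cell was 0.00216. Ran itself had a ratio of 1.45 (1.2 to 1.76) and Cse1l, an importin alpha export gene, 1.98 (0.931 to 4.84). In the ribosome biogenesis list 3 of 28 measured genes were at least 1.5-fold higher and 0 lower, a share of 10.7%. Pa2g4, Gar1 and Nip7, which act in ribosome assembly, had ratios of 1.63 (1.05 to 2.64), 1.72 (1.05 to 2.97) and 1.64 (0.877 to 3.36). The transcripts of ribosomal proteins themselves did not lean upward, with a median log2 fold of -0.08 over 222 measured genes and copies and a summed 2826 (2815 to 2837) UMI per 10000 against 3036 (3016 to 3055).

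Among genes that supply building blocks and energy, 6 genes of nucleotide and one-carbon metabolism were past 1.5-fold, 1 of oxidative phosphorylation and none of glycolysis. In the nucleotide and one-carbon metabolism list 6 of 18 measured genes were at least 1.5-fold higher and 0 lower, with a median log2 fold of 0.31. The 6 are a share of 33.3%, against 11.8% of all measured genes outside the cell cycle list. Dtymk, which makes thymidine diphosphate, stood at 1.61 (1.37 to 1.89) UMI per 10000 against 0.881 (0.581 to 1.28), and Psat1, of serine synthesis, at 1.46 (1.22 to 1.72) against 0.848 (0.554 to 1.24), with a log2 fold of -0.01 at 1000 UMI per cell. Mthfd2, a mitochondrial folate enzyme, had 25 UMI against 0, or 2.7-fold higher when the comparison group is set to a floor of 3 counts. In the glycolysis list 0 of 15 measured genes were at least 1.5-fold higher and 0 lower, and in the oxidative phosphorylation list 1 of 36 measured genes were at least 1.5-fold higher and 0 lower. The one higher gene was Sdhd, a membrane subunit of complex II, with a ratio of 1.83 (1.13 to 3.11). In the proteasome list Psma5, at a ratio of 1.76 (1.2 to 2.68), was the only one of 18 past 1.5-fold. In the heat shock and folding list Ahsa1 was the only one of 18.

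Several transcription factor genes of the immediate early and inflammatory response were lower in the dividing group. Cebpb, a leucine zipper factor of that response, had 455 and 277 UMI (its gene, chr2:167688915-167690418, overlaps Tmem189 on the opposite strand) and stood at 4.8 (4.37 to 5.26) UMI per 10000 against 9.04 (8.0 to 10.2), a ratio of 0.531 (0.457 to 0.619). The ratio was 0.627 (0.488 to 0.811) in cluster 0 and 0.66 (0.541 to 0.805) in cluster 1, so the pooled ratio lay below both. In the comparison group Cebpb stood at 5.27 UMI per 10000 in cluster 0 and 13.5 in cluster 1. Dividing cells held 695444 UMI in cluster 0 and 252083 in cluster 1, and comparison cells 166839 and 139670. Pooled ratios therefore also carry the unequal mix of clusters. Its relative Cebpd stood at 3.19 (2.84 to 3.57) against 5.35 (4.56 to 6.24), with a log2 fold of -0.47 at 1000 UMI per cell. The ratio of Cebpd was 0.602 (0.449 to 0.815) in cluster 0 and 0.778 (0.597 to 1.02) in cluster 1. Of the AP-1 factors, Fosl2 stood at 0.781 (0.613 to 0.98) against 1.66 (1.24 to 2.19) and Fosb at 1.18 (0.973 to 1.42) against 2.19 (1.69 to 2.78). Socs3, the feedback inhibitor of cytokine signalling, stood at 3.61 (3.24 to 4.01) against 5.68 (4.86 to 6.59), but had 45 and 27 UMI in the groups at 1000 UMI per cell, a log2 fold of -0.01. Its ratio was 0.708 (0.525 to 0.965) in cluster 0 and 0.802 (0.628 to 1.03) in cluster 1. In the immediate early and stress list 1 of 20 measured genes were at least 1.5-fold higher and 4 lower, the higher one being Hsp90aa1, and the median log2 fold was -0.32. The shares were 5% higher and 20% lower, against 11.8% and 6.48% of all measured genes outside the cell cycle list. The summed list stood at 90.7 (88.8 to 92.7) UMI per 10000 in the dividing group, 110.1 (108 to 112) in cells with 1 or 2 rule genes and 107 (103 to 111) in the comparison group. In single cells it ran from 0 to 159.8 with a median of 88.6 in the dividing group, and from 18.3 to 230.1 with a median of 102 in the comparison group, so the cells overlapped widely. Cebpb and Cebpd are in none of the lists and were named after their values were seen.

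The largest fold downward was that of Sfn (chr4:133600556-133602168), which encodes 14-3-3 sigma, an epithelial protein that holds Cdk1 in the cytoplasm after DNA damage. Sfn had 91 and 75 UMI and stood at 0.96 (0.773 to 1.18) UMI per 10000 against 2.45 (1.92 to 3.07), a ratio of 0.392 (0.286 to 0.54). The ratio was 0.223 (0.127 to 0.391) in cluster 0 and 0.771 (0.52 to 1.15) in cluster 1. Sfn was 1.73 (1.37 to 2.14) with 1 rule gene, 1.45 (1.09 to 1.87) with 2, 1.83 (1.4 to 2.35) with 3, 0.68 (0.311 to 1.29) with 4 and 0.42 (0.256 to 0.648) with 5 or more, so the intervals just inside and just outside the threshold overlapped, and those of cells with 5 or more rule genes lay below both. At 1000 UMI per cell it had a UMI in 10.1% of dividing and 18.9% of comparison cells, against 43.8% and 43.4% at full depth. The other 11 were Ldb1, Sertad1, Plec, Hoxb6, Pcf11, Ubfd1, Huwe1, Fosl2, Ckb, Rab26os and Prap1. Ldb1, an adaptor of LIM-domain transcription factors, stood at 0.285 (0.188 to 0.415) against 0.783 (0.502 to 1.17), and Huwe1, a ubiquitin ligase, at 0.591 (0.446 to 0.767) against 1.31 (0.932 to 1.78). Plec, which links keratin filaments to junctions, stood at 0.317 (0.214 to 0.452) against 0.783 (0.502 to 1.17). Ckb, brain-type creatine kinase, had a ratio of 0.477 (0.341 to 0.672) overall but of 1.44 (0.641 to 3.8) in cluster 0 and 0.493 (0.327 to 0.74) in cluster 1. Its last bases are shared with the copy Gm12892. Rab26os is antisense to Rab26, and reads of the pair may not be told apart. Mxd4, a partner of Max that opposes Myc, had 43 and 28 UMI, a ratio of 0.497 (0.302 to 0.83), and was named when the rule was applied without the cells rich in multiciliated markers.

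**Figure D4:**
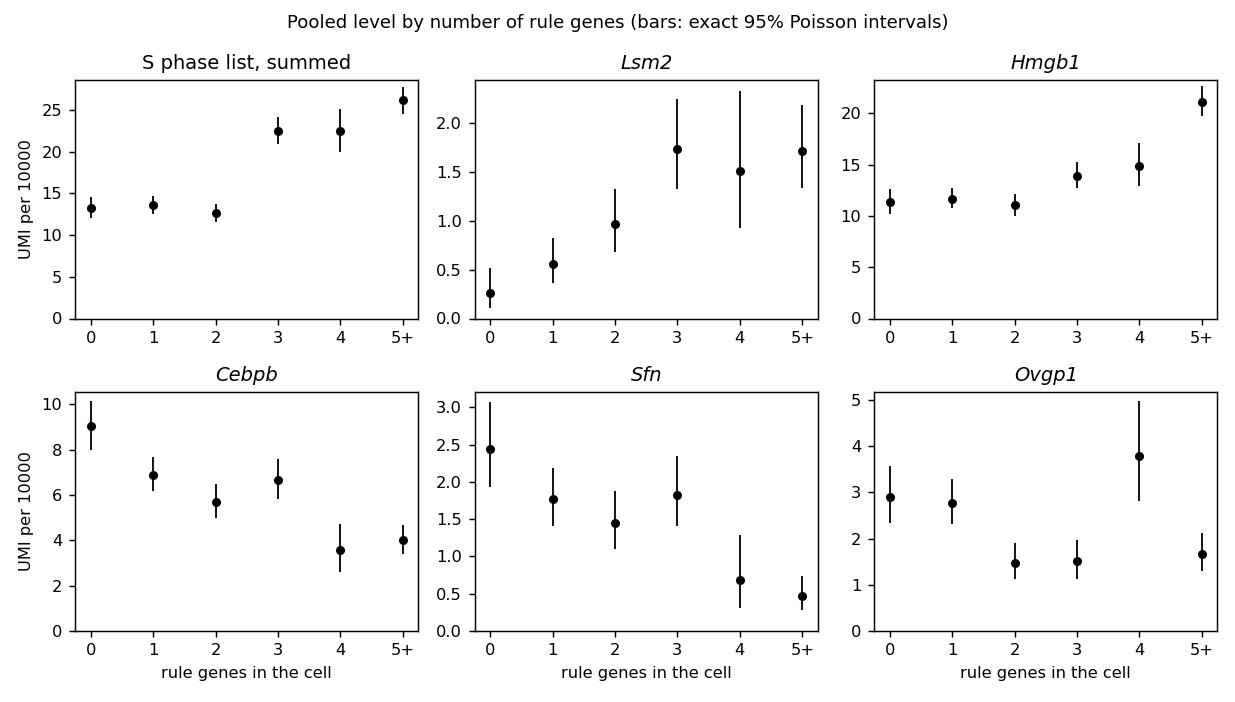
Pooled level in UMI per 10000 (vertical axes) of the summed S phase list and of 5 genes in P4 cells grouped by the number of the 10 rule genes with a UMI (horizontal axes), without the 6 cells over 30 UMI per 10000 of multiciliated markers and with exact 95% Poisson intervals. The S phase sum and Hmgb1 are flat from 0 to 2 genes and higher from 3, Lsm2 is higher at each number up to 3, and Cebpb and Sfn are lowest at 4 and 5 or more.

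Epithelial differentiation genes leaned downward by little. In the secretory list 1 of 11 measured genes were at least 1.5-fold higher and 1 lower, with a median log2 fold of -0.26 and a summed 20.3 (19.4 to 21.2) UMI per 10000 against 25.1 (23.4 to 27). Each count is 9.09% of the list, near the 11.8% higher and 6.48% lower among all measured genes outside the cell cycle list. The lower secretory gene was Ovgp1, the oviductal glycoprotein gene, at 1.84 (1.57 to 2.13) against 2.9 (2.33 to 3.57), a ratio of 0.632 (0.487 to 0.826). It was not ordered by the number of rule genes: 2.74 (2.29 to 3.25) UMI per 10000 with 1, 1.47 (1.12 to 1.9) with 2, 1.51 (1.12 to 1.98) with 3 and 3.78 (2.81 to 4.98) with 4. Within clusters its ratio was 0.673 (0.442 to 1.05) and 0.831 (0.589 to 1.18), both intervals including 1. In the junction list 0 of 16 measured genes were at least 1.5-fold higher and 4, or 25%, lower, against 11.8% and 6.48% of all. Of the 4, Dsp, the desmosome gene of desmoplakin, had a ratio of 0.582 (0.366 to 0.943), Cdh16, an epithelial cadherin of ducts, 0.576 (0.367 to 0.918), Crb3, an apical polarity gene, 0.577 (0.338 to 1.01), and Pkp2 0.512 (0.236 to 1.16). Pkp2 had 4 and 2 UMI at 1000 UMI per cell, a log2 fold of 0.20. Krt18, a keratin of simple epithelia, stood at 9.04 (8.45 to 9.67) against 12.4 (11.2 to 13.7), and Krt19 at 7.25 (6.72 to 7.81) against 9.89 (8.8 to 11.1), both within 1.5-fold.

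Transcription factors of oviduct identity and position had low counts. Pax8, of Müllerian duct epithelium, stood at 1.27 (1.05 to 1.51) UMI per 10000 against 1.7 (1.27 to 2.22). Wt1, of the distal oviduct, stood at 1.19 (0.983 to 1.43) against 1.47 (1.07 to 1.96), with a ratio of 0.53 (0.357 to 0.80) in cluster 0 and 2.3 (0.984 to 6.21) in cluster 1. Pax2 had 18 and 8 UMI, a ratio of 0.728 (0.301 to 1.93). In the regional transcription factor list 2 of 17 measured genes were at least 1.5-fold higher and 3 lower. Over all measured genes outside the cell cycle list the shares were 11.8% higher and 6.48% lower. Hoxb6 stood at 0.38 (0.266 to 0.526) against 0.914 (0.607 to 1.32), and Hoxb7 had 26 and 19 UMI, while Hoxd8 had 29 and 3. In the steroid receptor list 1 of 4 measured genes was at least 1.5-fold higher and 1 lower, with a median log2 fold of 0.06. Among receptors, Pgr, the progesterone receptor, had 24 and 18 UMI, a ratio of 0.431 (0.224 to 0.843), and Fgfr1 had 13 and 17, a ratio of 0.247 (0.11 to 0.541). Spry1, which dampens such receptors, had a ratio of 1.73 (0.986 to 3.23). Ndn, an imprinted growth suppressor, was the only one of 16 imprinted and fetal growth genes past 1.5-fold, with a ratio of 0.591 (0.347 to 1.03).

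At equal depth not every difference was seen. The genes with 200 or more UMI were not chosen on thinned counts, and with each cell thinned to 1000 UMI after grouping 21 of the 31 higher ones were still past 1.5-fold and 3 had the opposite sign, Slc25a5, Thoc7 and Snrpd1. Of the 7 lower ones 3 were past 1.5-fold, Cebpb, Ovgp1 and Ndufa6, and Ptpn22 and Hspb1 had the opposite sign. In cells between 5000 and 15000 UMI, 19 and 6 of them were past 1.5-fold. The rule for named genes required a fold of 1.5 after thinning, so the thinned direction of Lsm2 and Sfn was set by that choice. At 1000 UMI Lsm2 had 14 UMI in the dividing and 2 in the comparison group, Cebpb 37 and 47, Sfn 10 and 16, and Hmgb1 158 and 63. The log2 folds of these genes were 1.81, -1.07, -1.35 and 0.57, against 2.29, -0.90, -1.26 and 0.58 without thinning. The median of the chromatin list was 0.34 when thinned and 0.28 in cells between 5000 and 15000 UMI, and that of the immediate early and stress list -0.18 and -0.23. For splicing and nuclear transport the medians were 0.11 and 0.31, and for the secretory list -0.39 and -0.19.

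**Figure D5:**
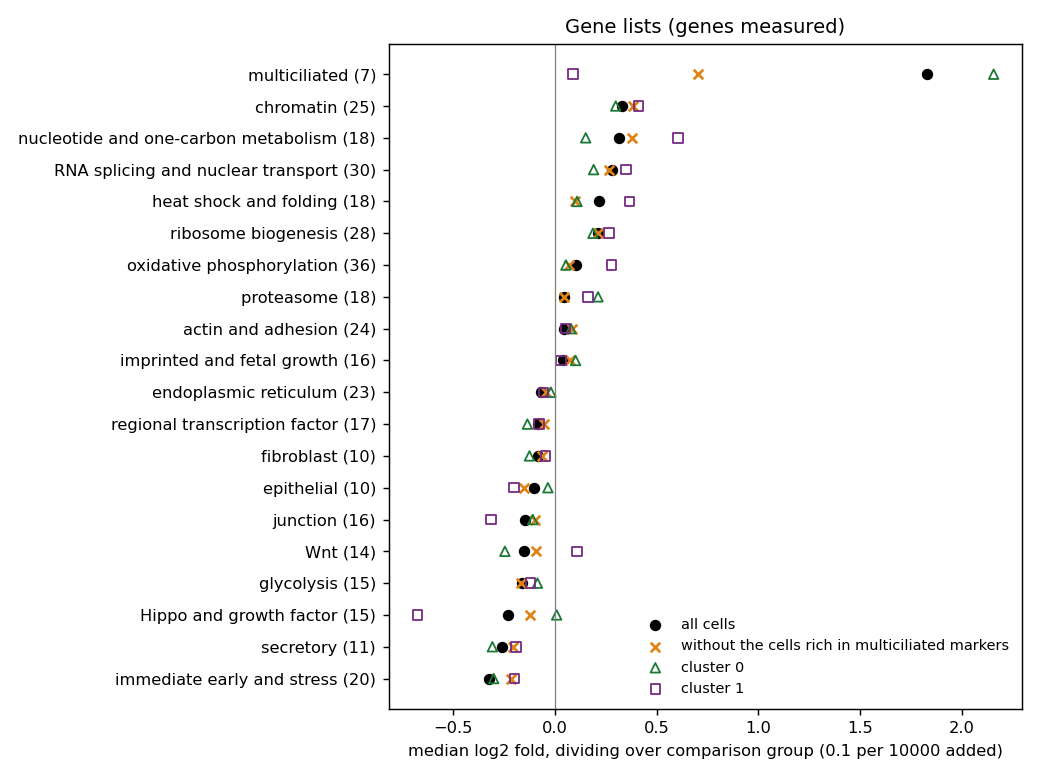
Median log2 fold of dividing over comparison group for 20 gene lists, with the number of measured genes in brackets, in all cells (filled circles), without the cells over 30 UMI per 10000 of multiciliated markers (crosses), in cluster 0 (triangles) and in cluster 1 (squares). The multiciliated list is far right in all cells and in cluster 0 and near 0 in cluster 1, and the chromatin list is right of 0 in all 4 settings.

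The dividing group made up 36.3% (29% to 44.1%) of the 168 cells of cluster 0 and 29.5% (20.6% to 39.7%) of the 95 cells of cluster 1, with median depths of 7856 and 7029 UMI. The intervals overlap. Within cluster 0, 61 dividing cells were set against 29 comparison cells, and 19.3% of measured genes outside the cell cycle list were at least 1.5-fold higher and 9.64% lower. Within cluster 1, 28 cells were set against 24, and the shares were 20.5% and 15.4%. Of 3494 genes with 50 or more UMI, 112 were higher in both, which is 22.4% of the 501 higher in cluster 0 and 21% of the 534 higher in cluster 1. Of all 3494, 15.3% were higher in cluster 1 and 14.3% in cluster 0. Lsm2, Ppa1, Snrpd1, Dtymk and Psat1 were among those higher in both. Lower in both were 31 genes, 14.9% of the 208 lower in cluster 0 and 9.06% of the 342 lower in cluster 1, against 9.79% and 5.95% of all these genes, and among them were Cebpb, Fosl2 and Fosb.

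The same rule was met by 2 of 406 adult cells, or 0.493% (0.0597% to 1.77%), whose median depth was 3232 UMI. At 3000 UMI per cell it was met by 1 of 215 adult cells and 26 of 245 P4 cells, after leaving out 191 and 18 shallower cells. At that depth the P4 share was 10.6% (7.05% to 15.2%) and the adult share 0.465% (0.0118% to 2.56%). With 1 library per age, age cannot be told apart from library. No barcode was shared between the 2 tables.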

How the data were processed

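The P4 table holds whole-number UMI counts of 53573 genes in 263 cells, as the authors deposited them, with cluster numbers for each cell. Cell Ranger, Seurat 2.3.4 and the build mm10 are named in the submitters' processing notes, and cell filters, doublet removal and strand setting are not given in the sources used here. The adult table has 807 columns, of which 401 repeat a barcode, leaving 406 cells. Each P4 cell holds 1331 to 23372 UMI, so levels were pooled over cells. The members and gene lists were chosen with earlier results of these data known.

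Levels are UMI of a gene per 10000 UMI of the group, with exact 95% Poisson intervals, and ratios have exact conditional binomial intervals. UMI were pooled without any test, doublet caller or normalization beyond the total. Genes were measured if 10% of P4 cells had a UMI, a filter that counts the dividing cells and that genes high in them pass more easily. Named genes are the 12 largest folds in each direction among measured genes outside the cell cycle list, ribosomal protein, mitochondrial and Gm or Rik genes, with 50 or more UMI, a fold of 1.5 both as counted and after thinning to 1000 UMI, and no cell with over 25% of their UMI. Members of the lists past 1.5-fold with 50 or more UMI, the rule genes and Wt1, Pax2, Pax8, Foxj1, Ovgp1 and Epcam were added. All other genes in the text, among them cell cycle genes, markers and list members with fewer UMI, were chosen after their values were seen, and some list members are not reported here. Thinning drew UMI without replacement (seed 7). Gene positions are from GENCODE annotation of GRCm38 and promoters from RefSeq on GRCm38.p6, and a gene counts as having a near copy if 90 of the last 400 bases match another gene at 97% identity, which held for 15 of 129 genes checked. Scripts ran in Python 3.11.15 with numpy 2.4.6, pandas 2.3.3, scipy 1.17.1 and matplotlib 3.10.9 and were tested on simulated data. Alternatives changed the depth, the offset, the filter, the number of rule genes, the clusters and the cells used.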

Additional observations from a re-analysis of the deposited data

How the results depend on the processing

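The numbers of genes past 1.5-fold moved with the settings. Of measured genes outside the cell cycle list, 906 were higher and 497 lower. These became 2509 and 1729 in cells thinned to 1000 UMI, 1540 and 1149 at 3000 UMI, 123 and 45 with 0.5 instead of 0.1 added, 415 and 267 with cells of 0 or 1 rule gene as comparison, 1822 and 1229 with no filter, 275 and 133 with a filter of 25% of cells, and 31 and 7 with at least 200 UMI, the last chosen after seeing the data. In cluster 0 there were 1479 higher genes, in cluster 1 there were 1574 higher and 1184 lower, and with 5 or more rule genes 751 were lower. The share of dividing cells, 33.8%, was 3.04% when cells were thinned to 1000 UMI before grouping, 52.5% with 2 or more rule genes and 14.1% with 5 or more.

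Thinning to 1000 UMI was part of the choice of the 12 top genes and is left aside for them. Of the 12 top higher genes all stayed past 1.5-fold in the other settings except cluster 1, where 7 did, and without cells over 15 UMI per 10000 of multiciliated markers, where 9 did. Of the 12 top lower genes 8 did at 3000 UMI, 11 as a mean over cells, 9 with cells of 0 or 1 rule gene as comparison, 7 in cluster 0 and 11 in cluster 1, and all did in the rest. Some named genes changed sign. At 1000 UMI the log2 fold was 0.058 for Hspb1, -0.34 for Snrpd1, -0.010 for Psat1 and -0.14 for Slc25a5, and at 3000 UMI 0.10 for Sertad1 and -0.066 for Mylk. With cells of 0 or 1 rule gene as comparison it was -0.062 for Cd74. In cluster 0 it was 0.44 for Ckb, and in cluster 1 -0.19 for Foxj1, -0.15 for Pifo and -0.81 for Cfap126. Without the cells over 15 UMI it was -0.16 for Pifo and -0.25 for Cfap126. The cause was not tested. A comparison group without any S phase UMI was not run because it leaves 1 cell. No paired analysis was possible because there is 1 library.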

Other observations

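Several subunits of Mediator, the complex that links transcription factors to RNA polymerase II, were higher in the dividing group. Of 22 measured genes with Med symbols, 9 were at least 1.5-fold higher in the dividing group and 0 lower, with a median log2 fold of 0.53. Of all measured genes outside the cell cycle list, 11.8% were higher and 6.48% lower, with a median of 0.03. Without the cells rich in multiciliated markers 8 Mediator genes were higher and 0 lower, against 10.8% and 6.44% of all, and their median was 0.42. The Mediator median was 0.57 in cluster 0 and 0.33 in cluster 1, where 19.3% and 20.5% of all were higher. Med10 had 72 and 10 UMI, a ratio of 2.33 (1.2 to 5.06), Med31 66 and 10, a ratio of 2.13 (1.09 to 4.66), and Med21 72 and 33, a ratio of 0.706 (0.461 to 1.1). No single subunit had more than 33 UMI in the comparison group. The family was picked after its values were seen, and no test was made.

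The NudC family of dynein and Hsp90 partners was picked the same way. Of 4 measured members 3 were higher, Nudc, Nudcd2 and Nudcd3, and Nudcd1 was within 1.5-fold with 20 and 8 UMI. Of all measured genes outside the cell cycle list 11.8% were higher. Nudcd3 had 71 and 9 UMI, a ratio of 2.55 (1.27 to 5.81), but a log2 fold of -0.01 at 1000 UMI per cell. Nudc had a log2 fold of 0.24 there, and a ratio of 2.38 (1.73 to 3.34) in all cells and of 1.63 (1.17 to 2.31) without the cells rich in multiciliated markers.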
